A study of Caenorhabditis elegans with 30 samples.

Results

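Gene expression was compared between the 2 sets of empty-vector libraries of an RNA interference (RNAi) feeding series in the nematode Caenorhabditis elegans. Both sets were made from whole hermaphrodites of the wild-type strain N2 at an age of 5 days, given L4440, the plasmid without an insert that serves as the control in RNAi by feeding. They differed in the labels only by the prefix and number of their library titles. The group called L4440_RM held the libraries with the prefix RM and title numbers 16, 21 and 26, and the group called L4440_ZK held those with the prefix ZK and numbers 1, 6 and 11. The labels do not say what the prefixes stand for. The 6 libraries were chosen by these titles from 30 in all, and the other 24 came from worms fed RNAi against a gene. Each group held 1 library from each of the sequencing lanes 1, 2 and 5. Nothing in the labels shows that replicates were grown apart, so the p-values measure the spread between these libraries, which may be technical.

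An adult hermaphrodite holds post-mitotic body tissue (intestine, muscle, neurons and an epidermis that secretes the cuticle), a gonad in which germ cells pass through meiosis to become oocytes, and fertilised eggs in the uterus. The hermaphrodite makes its own sperm in the last larval stage and then only oocytes, so sperm transcripts belong to larvae and males. Cuticle collagens are made in waves at each larval moult. The intestine makes the yolk proteins and most of the peptides and lectins used against bacteria. The RNA of a whole worm is the sum of all of these.

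The 6 libraries held 32275946 to 44739217 counts. Markers of intestine, muscle, epidermis, neurons, germline and oocytes were all detected. Of the 8 markers of male-specific neurons and seminal fluid, 2 had enough counts to be tested and neither passed the test, with a summed level of 1.39 to 1.99 CPM (counts scaled to the size of the library) in ZK and 2.37 to 3.06 CPM in RM. Ribosomal RNA genes held 0.0393% to 0.509% of the counts of a library. The RM libraries varied more among themselves than the ZK libraries. The biological coefficient of variation, which is the spread beyond counting error, was 12.11% in RM and 5.78% in ZK. It was 7.73% in RM without replicate 3, 16.7% without replicate 1 and 11.6% without replicate 2. Results that rest on RM replicate 3 are therefore given with and without it. The first principal component held 73.4% of the variance and separated the prefixes.

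Of 14555 genes with enough counts to test, 6461 differed between RM and ZK (44.4%; edgeR quasi-likelihood test, adjusted p under 0.05). In RM, 2958 genes were higher (20.3%) and 3503 were lower (24.1%). The 3 libraries of either group did not overlap for 6323 of the genes called. The groups also did not overlap for 56.3% of all genes tested. The higher genes moved further and had fewer counts than the lower ones. Genes called higher had a median log2 fold change (RM over ZK) of 0.80 at a median level of 2.15 CPM, and genes called lower a median of −0.32 at 64.1 CPM. More than 2-fold differences counted 1163 higher and 213 lower genes, and more than 4-fold differences 520 higher and 6 lower genes.

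The direction changed with the level of the gene. With the tested genes split by mean CPM into 5 equal groups, 34.2% of the lowest group were higher in RM and 3.30% were lower. In the highest group, 5.87% were higher and 46.6% were lower. In the next highest, 8.93% were higher and 41.6% were lower. The gene lists described below were not compared with genes of equal level. More genes had at least 1 count in RM (20094, 20057 and 19939) than in ZK (19368, 18958 and 19177), although the RM libraries were not larger as a group, with an exact two-sided permutation p of 0.1, the smallest that 3 against 3 libraries can give. The direction of small differences depended on the scaling. With scaling to library totals in place of TMM factors, the median over all tested genes went from 0.02 to 0.17 (log2), and the share of called genes that were higher went from 45.8% to 75.4%. The count of lower genes was 2178 without ZK replicate 2 and 2364 without ZK replicate 1, against 3503 with all 6 libraries.

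**Figure D1:**
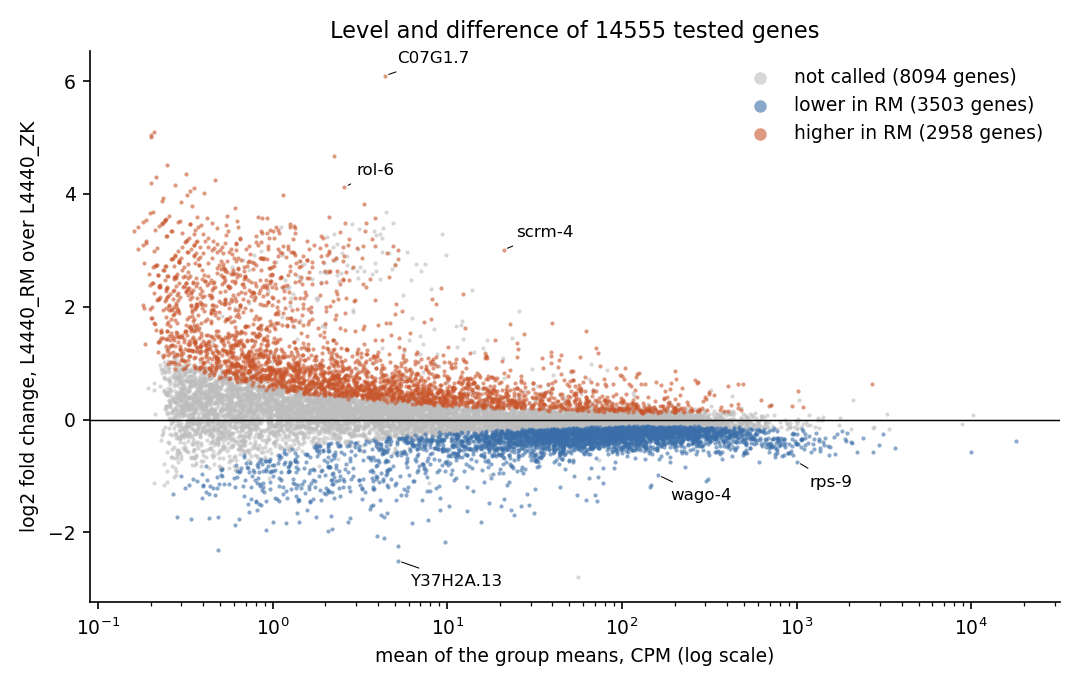
Each point is a tested gene, with the mean of the 2 group means in CPM on a logarithmic horizontal axis and the log2 fold change (L4440_RM over L4440_ZK) on the vertical axis; red genes were called higher in RM, blue genes lower and grey genes not called. Genes called higher lie mostly at low levels and reach a log2 fold change of 6.09 at C07G1.7, while genes called lower lie mostly at high levels within a narrow band.

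The largest difference among genes above a mean of 1 CPM was at C07G1.7, a protein-coding gene on chromosome IV at 8210906 to 8211847 (WBcel235). Its level was 0.102, 0.181 and 0.0958 CPM in ZK and 7.23, 8.55 and 10.1 CPM in RM, a log2 fold change of 6.09 ± 0.24 (SE) with an edgeR adjusted p of 3.48e-07. All RM libraries were high, all ZK libraries were near zero, and the groups lay far apart. C07G1.7 and its neighbour C07G1.6 both lie inside svh-1, a gene of the growth factor family of mammalian HGF that acts in axon regeneration, on the opposite strand. C07G1.6 was higher by a log2 fold change of 4.05 ± 0.49 (edgeR adjusted p 0.000176). Counts of svh-1 itself were 1.15, 1.03 and 1.01 CPM in ZK and 2.00, 1.86 and 1.52 CPM in RM, a log2 fold change of 0.76 ± 0.18. No exon of C07G1.7 overlaps an exon of svh-1, while 162 of the 762 exon bases of C07G1.6 do. Since the library kit does not mark strand, reads over those shared bases cannot be told apart.

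The gene with the smallest p was scrm-4, of the scramblase family that moves phospholipids between membrane leaflets, on chromosome I at 11680899 to 11682441. It had 4.34, 4.16 and 5.36 CPM in ZK and 40.1, 37.4 and 34.6 CPM in RM, a log2 fold change of 3.01 ± 0.10 (edgeR adjusted p 1.85e-07), or 8.05-fold. Values within each group were close together and the groups did not overlap. The end of scrm-4 overlaps kpc-1, a gene on the other strand, which had a mean of 16.36 CPM in ZK and 14.0 CPM in RM and did not pass the test (adjusted p 0.149). Among F-box genes, whose products hand proteins to ubiquitin ligases, fbxb-97 had 0.587, 0.634 and 0.934 CPM in ZK and 5.53, 8.25 and 6.31 CPM in RM. Its log2 fold change was 3.20 ± 0.22 (edgeR adjusted p 2.44e-05). A smaller but steady difference was found at sysm-1, with 139, 138 and 152 CPM in ZK and 258, 243 and 276 CPM in RM (log2 fold change 0.86 ± 0.06). C04F12.12 was the only gene with no count in all 3 libraries of a group and at least 30 in the other, with 31 counts over the RM libraries. It was too low to be tested.

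**Figure D2:**
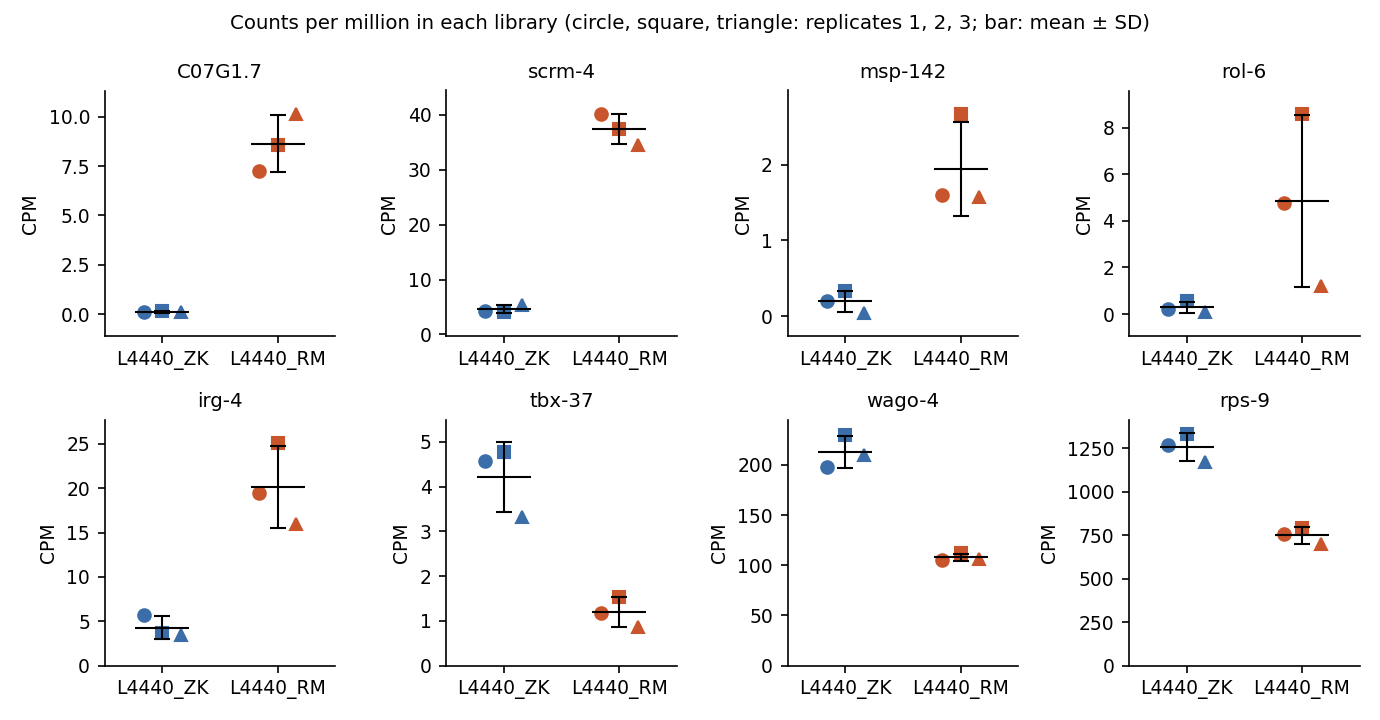
Each panel plots CPM in the 3 L4440_ZK libraries (blue) and the 3 L4440_RM libraries (red) for a gene; circles, squares and triangles are replicates 1, 2 and 3, and the bars are the mean ± SD. The groups do not overlap in any of the 8 panels; rol-6 has its lowest RM value, 1.22 CPM, in replicate 3.

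Sperm transcripts were higher in RM, though at low levels in both groups. All 24 tested genes for major sperm protein, the small protein that drives the crawling of nematode sperm and signals to oocytes, were called higher, with a median log2 fold change of 2.68 and a range of 2.19 to 3.99. The family summed to 6.55, 7.09 and 2.04 CPM in ZK and to 28.5, 46.1 and 34.5 CPM in RM, or 0.0005% and 0.0038% of all counts. Of the 31 members in the table, the other 7 had too few counts to be tested, and since the genes are near-identical copies, reads may be split between them. For msp-142 the level was 0.204, 0.332 and 0.0479 CPM in ZK (21 counts in all) and 1.604, 2.66 and 1.57 CPM in RM (213 counts), a log2 fold change of 3.36 ± 0.45 (edgeR adjusted p 0.000508). ZK replicate 3 was the lowest library and RM replicate 2 the highest. In a whole worm, fewer cells of a type and less RNA per cell cannot be told apart, here and in every list described after it.

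Of 34 tested genes in a second list of sperm genes, 27 were higher and 1, ssp-37, was lower, with a median log2 fold change of 2.27. Among all tested genes 20.3% were higher, and the median was 0.02. spch-3, a protamine-like protein of sperm chromatin, had 0.306, 0.422 and 0.168 CPM in ZK and 1.73, 2.63 and 2.63 CPM in RM (log2 fold change 2.98 ± 0.30). gsp-4, a phosphatase needed for sperm meiosis and motility, had 0.255, 0.422 and 0.0479 CPM in ZK and 1.48, 1.92 and 2.30 CPM in RM (log2 fold change 3.02 ± 0.46). spe-11, a sperm protein needed by the fertilised egg, was higher by 2.16 ± 0.24. No RM value of these genes came near the ZK values. alg-3 and alg-4, the Argonaute proteins of spermatogenesis, were 2 of the 6 genes called higher in a list of 57 small RNA genes, of which 33 were lower. alg-4 had 0.230, 0.573 and 0.287 CPM in ZK and 2.49, 3.90 and 2.84 CPM in RM (log2 fold change 3.10 ± 0.31; edgeR adjusted p 0.000103). alg-3 was higher by 2.43 ± 0.26. The sperm calls changed little when a library was left out: the count of major sperm protein genes called higher stayed at 23 or 24, and that of the second list at 26 or 27. The call of ssp-37 was lost when any library but RM replicate 3 was left out.

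Genes of cuticle and moulting were higher in RM replicates 1 and 2, and less so in replicate 3. Of 20 tested collagens named for a body shape mutant (rol, sqt, dpy, bli and others), 9 were called higher and none lower, with a median log2 fold change of 3.00. Their sum was 28.3, 41.1 and 22.8 CPM in ZK and 140, 208 and 48.8 CPM in RM. RM replicate 3 was the lowest RM library for 18 of the 20, and the groups did not overlap for 15. Without RM replicate 3, 19 of the 20 were called. With any other library left out, the count was 4 or 5. With all 6 libraries kept, it was 18 in DESeq2, 20 with lane as a block and 5 with no filter on low counts. It was also 20 in a fit of all 30 libraries or of the 27 without C01A2.5 RNAi. Those larger fits set the filter on low counts, the scaling and the spread anew.

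rol-6, a cuticle collagen whose mutants roll, had 0.230, 0.543 and 0.0958 CPM in ZK and 4.79, 8.58 and 1.22 CPM in RM. Its log2 fold change was 4.12 ± 1.05 (edgeR adjusted p 0.034), with an adjusted p of 0.00222 without RM replicate 3 and of 0.0691 to 0.107 with any other library left out. The large standard error goes with the spread of the 3 RM libraries. sqt-1 and dpy-4, further collagens of the larval cuticle, had the same order of RM libraries, with 7.13, 10.3 and 1.299 CPM and 7.08, 12.34 and 1.76 CPM. Both lost their call when any library but RM replicate 3 was left out, and all 3 genes lost it with no filter on low counts. dpy-7 had 3.55, 5.89 and 0.866 CPM in RM against 0.335 to 0.845 CPM in ZK and did not pass (adjusted p 0.0579). It passed in DESeq2, with lane as a block and in the fits of all 30 or of 27 libraries. Without RM replicate 3 its adjusted p was 0.00036, and with any other library left out 0.103 to 0.157. dpy-9 and dpy-17 were called whichever library was left out. dpy-9 was higher by 2.47 ± 0.52 and dpy-17 by 0.69 ± 0.14.

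In the large col family, 42 of 108 tested collagens were higher and none was lower (median log2 fold change 1.75). The sum was 0.175% of all counts in ZK and 0.337% in RM, with an exact permutation p of 0.1. The number called moved with the libraries used and with the way of fitting. It was 85 without RM replicate 3, 22 without RM replicate 1, and 18, 26 and 19 without ZK replicates 1, 2 and 3. With all 6 libraries kept, the count was 80 in DESeq2, 88 with lane as a block and 25 with no filter on low counts. It was 83 in the fit of all 30 libraries and 78 in that of 27. Some collagens differed by less and more evenly. col-184 had 131, 131 and 136 CPM in ZK and 183.5, 214 and 209 CPM in RM (log2 fold change 0.61 ± 0.06; edgeR adjusted p 9.04e-05). col-19, a collagen of the adult cuticle, had 42.3, 39.3 and 37.5 CPM in ZK and 62.02, 77.5 and 55.2 CPM in RM (log2 fold change 0.71 ± 0.12). The call of col-19 was lost in the fit of 27 libraries. For both genes every RM library lay above every ZK library, replicate 3 included.

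Other genes active at the moult had the same order of libraries. Of 20 moulting genes, 7 were higher and none lower (median log2 fold change 0.66), and 13 were higher without RM replicate 3. That count was 3 or 4 with any other library left out. With all 6 kept, it was 13 with lane as a block and 12 in the fits of all 30 or of 27 libraries. mlt-8, a gene required for moulting, had 1.79, 2.41 and 1.75 CPM in ZK and 8.59, 11.45 and 4.41 CPM in RM (log2 fold change 2.04 ± 0.38; edgeR adjusted p 0.00759). mlt-10, also needed for moulting, had 7.32, 7.75 and 6.15 CPM in ZK and 10.8, 12.4 and 5.31 CPM in RM, so that RM replicate 3 was the lowest library of all. It did not pass with all libraries (adjusted p 0.332), and passed without RM replicate 3 (adjusted p 0.000182; with any other left out 0.372 to 0.696). The 7 markers of the larval moult summed to 24.7 to 33.1 CPM in ZK and to 75.1, 106 and 31.7 CPM in RM replicates 1, 2 and 3. Their part in the other results was not tested.

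Hedgehog-related and patched-related genes form an expanded family in nematodes with many members in the epidermis, and 32 of 62 tested were higher and 1 was lower (median log2 fold change 0.80). Without RM replicate 3, 42 were higher and 2 lower, and the higher count was 21 and 19 without ZK replicates 1 and 3. With at least 1 CPM required, 19 of the 35 genes left were higher. grl-10 had 5.51, 4.95 and 5.94 CPM in ZK and 11.55, 10.4 and 13.2 CPM in RM, here with replicate 3 highest (log2 fold change 1.101 ± 0.12; edgeR adjusted p 0.000103). ptr-6, a patched-related gene, was higher by 1.03 ± 0.17. ptc-1, the patched homologue needed for germline cytokinesis, was the lower member, with 913, 948 and 992 CPM in ZK and 780, 762 and 698 CPM in RM (log2 fold change −0.35 ± 0.06). On chromosome X at 11057401 to 11064539, the neighbours lpr-3, lpr-6 and lpr-5, lipocalin-related proteins of the apical matrix, were higher by 1.92 ± 0.51, 3.32 ± 0.67 and 3.34 ± 0.83. The calls of lpr-3 and lpr-5 were lost when any library but RM replicate 3 was left out and with no filter on low counts, and that of lpr-6 without ZK replicate 2 or 3.

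**Figure D3:**
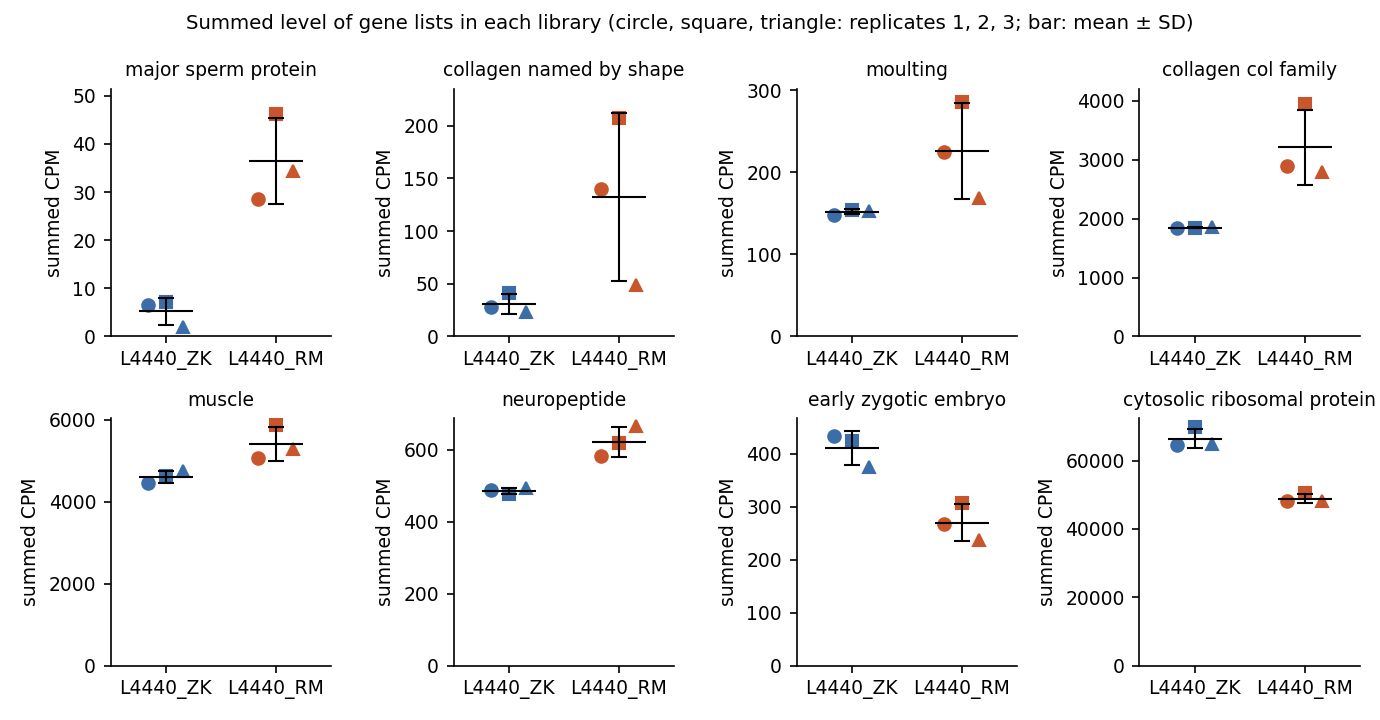
Each panel plots the summed CPM of the tested and untested members of a gene list in the 3 L4440_ZK libraries (blue) and the 3 L4440_RM libraries (red); circles, squares and triangles are replicates 1, 2 and 3, and the bars are the mean ± SD. For collagens named by shape and for moulting genes RM replicate 3 lies close to the ZK libraries, at 48.8 and 168 CPM, while for major sperm protein, neuropeptides and ribosomal proteins it lies with the other RM libraries.

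Muscle genes were higher in RM in all 3 libraries. Of 53 tested, 33 were called higher and 2 lower (median log2 fold change 0.52), and the higher count was 27 to 32 when a library was left out. ttn-1, the giant titin-like protein of the sarcomere, had 7.78, 8.93 and 8.26 CPM in ZK and 15.9, 20.6 and 19.8 CPM in RM (log2 fold change 1.17 ± 0.11; edgeR adjusted p 7.6e-05). mlc-3, a myosin light chain, had 78.5, 76.0 and 78.5 CPM in ZK and 122, 141.6 and 119.3 CPM in RM (log2 fold change 0.72 ± 0.07). tni-3, a troponin I, was higher by 0.77 ± 0.09, and unc-87, which binds actin filaments, by 0.63 ± 0.07. unc-54, the main myosin heavy chain of body wall muscle, had 178, 215 and 206 CPM in ZK and 259, 400 and 320 CPM in RM, a log2 fold change of 0.71 ± 0.18. Its call (adjusted p 0.0278) was lost without RM replicate 3, without each ZK replicate and with no filter on low counts. The 4 markers of body wall muscle summed to 319 to 373 CPM in ZK and to 452 to 669 CPM in RM, and those of the pharynx to 25.7 to 28.5 CPM and 38.7 to 57.4 CPM. The lower members were act-2, an actin also used outside muscle, at −0.44 ± 0.06, and pat-3, the beta integrin of many tissues, at −0.31 ± 0.04.

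Neuropeptide genes were also higher, in 50 of 92 tested, with 2 lower and a median log2 fold change of 0.47. Their sum was 488, 478 and 494 CPM in ZK and 583, 620 and 665 CPM in RM, with RM replicate 3 highest. The count of higher genes was 33 to 43 when a library was left out, lowest without ZK replicate 2, and 33 in DESeq2. nlp-16 had 6.40, 6.18 and 6.11 CPM in ZK and 10.6, 11.1 and 9.88 CPM in RM (log2 fold change 0.76 ± 0.09; edgeR adjusted p 0.000192). nlp-49 was higher by 0.74 ± 0.09 and flp-3, an FMRFamide-like peptide gene, by 0.75 ± 0.11. The broad neuronal markers did not move together: of 4, 1 was higher and 1 was lower, with sums of 206 to 233 CPM in ZK and 207 to 243 CPM in RM. Of 43 cilium genes 12 were higher and 2 lower, which is 27.9% against 20.3% of all genes for the higher direction. The higher count was 6 in DESeq2 and 19 with library totals, and the lower count was 1 without RM replicate 1 or ZK replicate 1 or 2. osm-3, a kinesin motor of sensory cilia, had 1.76, 1.39 and 1.94 CPM in ZK and 3.01, 2.90 and 3.33 CPM in RM (log2 fold change 0.85 ± 0.16). dyf-3, needed to build sensory cilia, went the other way, from 7.45, 10.6 and 7.85 CPM in ZK to 1.41, 0.917 and 3.11 CPM in RM (log2 fold change −2.24 ± 0.45). Its call was lost without RM replicate 1.

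Several genes of the intestinal response to pathogens were among the larger differences. Of 17 in the list, 10 were higher and 1 lower, with a median log2 fold change of 0.41, and none was lower when any library was left out. irg-4, a CUB-domain protein used as a reporter of infection, had 5.74, 3.68 and 3.42 CPM in ZK and 19.5, 25.08 and 15.9 CPM in RM. Its log2 fold change was 2.23 ± 0.26 (edgeR adjusted p 0.000989), or 4.70-fold. irg-5, a second gene of the response to Pseudomonas, had 14.3, 13.3 and 14.8 CPM in ZK and 33.5, 53.1 and 35.1 CPM in RM (log2 fold change 1.52 ± 0.19). dod-22 was higher by 1.36 ± 0.13 and dod-24, a CUB-domain gene repressed by the transcription factor DAF-16, by 1.17 ± 0.16. irg-1 was higher by 0.78 ± 0.21, a call that was lost without ZK replicate 2. The lower RM values of these genes still lay above the highest ZK values.

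Other defence families held genes of both directions. Of 105 C-type lectins, 30 were higher and 12 lower (median log2 fold change 0.19), and the lower count was 6 without ZK replicate 1 or 2 and 5 with library totals. clec-67, a lectin of the infection response, had 2.42, 2.44 and 4.19 CPM in ZK and 12.4, 16.45 and 11.15 CPM in RM (log2 fold change 2.13 ± 0.25; edgeR adjusted p 0.00064). clec-91 went from 443, 438 and 409 CPM in ZK to 310, 282 and 275 CPM in RM (log2 fold change −0.57 ± 0.06). Of 12 lysozyme genes, whose enzymes cut bacterial walls, 3 were higher and 4 lower. These shares, 25% and 33.3%, were not far from the 20.3% and 24.1% of all tested genes. The higher count was 5 without ZK replicate 1 or with lane as a block, and 6 with library totals or with at least 1 CPM required. lys-4 had 53.2, 51.02 and 38.9 CPM in ZK and 13.3, 15.1 and 16.9 CPM in RM, a log2 fold change of −1.66 ± 0.13 (edgeR adjusted p 0.000114), or 3.16-fold lower. lys-10 had 5.97, 6.46 and 6.68 CPM in ZK and 2.22, 1.54 and 0.758 CPM in RM (log2 fold change −2.07 ± 0.31). For both lysozymes all RM libraries were below all ZK libraries.

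Peptides of epidermal defence were higher in 10 of 28 genes and lower in 1 (median log2 fold change 0.36). nlp-33 had 6.504, 7.63 and 7.35 CPM in ZK and 14.6, 16.3 and 14.5 CPM in RM (log2 fold change 1.08 ± 0.10; edgeR adjusted p 6.93e-05). nlp-28, a peptide gene of the same cluster as nlp-27, was the lower member at −0.72 ± 0.10, while nlp-27 was higher at 0.60 ± 0.08. In the pals family, whose members pals-22 and pals-25 control the response to intracellular pathogens, 4 of 22 were higher and none was lower, close to the 20.3% of all genes. The count was 2 without RM replicate 1, without ZK replicate 1 or 2, in DESeq2 and with at least 1 CPM required, and 7 with library totals. pals-25 had 2.37, 2.23 and 2.54 CPM in ZK and 4.66, 5.44 and 5.52 CPM in RM (log2 fold change 1.13 ± 0.13). The metallothionein mtl-2, which binds heavy metals, had 17.2, 16.6 and 21.8 CPM in ZK and 49.1, 59.3 and 73.2 CPM in RM. That was a log2 fold change of 1.705 ± 0.18 (edgeR adjusted p 0.000715), in a metal and iron list with 6 of 38 higher and 9 lower. These shares, 15.8% and 23.7%, were close to the 20.3% and 24.1% of all tested genes. In that list the higher count was 3 without RM replicate 1 or ZK replicate 1, and the lower count was 3 without ZK replicate 1 or 2 and 5 with at least 1 CPM required. With library totals 14 were higher and 2 lower.

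Genes switched on in the early embryo were lower in RM. Of 41 tested genes first transcribed in the zygote, 22 were lower and 4 higher, with a median log2 fold change of −0.82 against 0.02 for all genes. The higher count was 2 without RM replicate 2 or ZK replicate 2, and 1 without ZK replicate 3, in DESeq2 and with at least 1 CPM required. Their sum was 434, 424 and 375 CPM in ZK and 267, 307 and 237 CPM in RM. The T-box factor tbx-37, needed with tbx-38 to make the anterior pharynx, had 4.57, 4.77 and 3.33 CPM in ZK and 1.18, 1.54 and 0.866 CPM in RM. Its log2 fold change was −1.82 ± 0.22 (edgeR adjusted p 0.000188), or 3.53-fold lower. tbx-38 was lower by −2.10 ± 0.38 and tbx-11, a further T-box gene, by −1.83 ± 0.30. tbx-8 and tbx-9, which act together in shaping the embryo, were lower by −0.93 ± 0.15 and −0.70 ± 0.07. In both groups replicate 3 was the lowest library for tbx-37, and the groups did not overlap.

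Further embryonic genes had the same direction. ngn-1, the neurogenin homologue of neural precursors, had 3.29, 4.04 and 3.04 CPM in ZK and 0.666, 1.06 and 0.975 CPM in RM (log2 fold change −1.94 ± 0.20; edgeR adjusted p 0.000103). skr-9, a Skp1-related subunit of ubiquitin ligases, had 28.1, 26.1 and 18.3 CPM in ZK and between 4.87 and 10.1 CPM in RM (log2 fold change −1.82 ± 0.34). pes-10, a marker of the first zygotic transcription, had 12.06, 11.7 and 8.57 CPM in ZK and 4.66, 7.63 and 2.65 CPM in RM. Its groups did not overlap, but it did not pass the test with all libraries (adjusted p 0.0759). It passed in the fits of all 30 and of 27 libraries, in DESeq2, with lane as a block and without RM replicate 2. The 10 early zygotic markers summed to 18.6 to 27.2 CPM in ZK and to 6.69 to 14.5 CPM in RM. Most of that sum came from tbx-37, tbx-38 and pes-10. Of the 6 markers with enough counts to test, 2 (tbx-37 and tbx-38) were lower and 1 (ceh-51) was higher. Among the exceptions sdz-24 was higher, from 0.383, 0.392 and 0.383 CPM in ZK to 2.96, 4.20 and 1.16 CPM in RM (log2 fold change 2.83 ± 0.50).

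Adaptors of ubiquitin ligases (the skr, F-box and MATH families) were lower in 118 of 308 tested genes and higher in 27 (median log2 fold change −0.21). These were 38.3% and 8.77%, against 24.1% and 20.3% of all tested genes. The lower count was 75 and 77 without ZK replicates 1 and 2, and the higher count was 15 without ZK replicate 2 and in DESeq2. With scaling to library totals it was 86 lower and 49 higher. fbxa-192 had 32.2, 30.1 and 30.7 CPM in ZK and 15.3, 12.9 and 14.7 CPM in RM (log2 fold change −1.11 ± 0.08; edgeR adjusted p 2.44e-05). fbxb-96, a member of the same subfamily as the much higher fbxb-97, was lower by −1.83 ± 0.50, a call lost without RM replicate 1 and without ZK replicate 1 or 2. The insulin-like peptide gene ins-19 had 19.5, 16.6 and 11.6 CPM in ZK and 2.42, 2.81 and 5.41 CPM in RM (log2 fold change −2.17 ± 0.38), or 4.49-fold lower. The linker histone his-24 went from 29.5, 27.5 and 21.6 CPM in ZK to 11.0, 17.3 and 12.4 CPM in RM (log2 fold change −0.95 ± 0.19), and its call was lost without RM replicate 3.

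Many germline genes were lower in RM by small amounts, at a share not far from that of the highest level group. Of 44 genes of germline and meiosis, 23 were lower and 1 higher, with a median log2 fold change of −0.18. That was 52.3% lower, against 24.1% of all tested genes and 46.6% of the highest level group, whose median was −0.13. The lower count was 11 and 13 without ZK replicates 2 and 3, and the higher count was 0 to 2 when a library was left out. gld-1, the RNA-binding protein that holds back translation in meiotic germ cells, had 1045, 1143 and 1142 CPM in ZK and 757, 743 and 762 CPM in RM. Its log2 fold change was −0.56 ± 0.06 (edgeR adjusted p 9.9e-05). nos-3, a Nanos-related regulator of germ cells, had 288, 304 and 310 CPM in ZK and 203, 213 and 213 CPM in RM (log2 fold change −0.52 ± 0.05). htp-1, a protein of meiotic chromosome axes, and pgl-1, of the germ granules, were both lower by −0.44, with SE of 0.04 and 0.05. The RM libraries of these genes lay close together and below all ZK libraries. The 4 germline markers summed to 1194 to 1288 CPM in ZK and to 977 to 1009 CPM in RM, and 3 were lower. With library totals the list counted 9 lower and 8 higher. Relative to the median of all genes it was at −0.20. A change of scaling shifts all genes alike and so cannot test that value.

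Oocyte and eggshell genes were lower in 16 of 35 cases and higher in 2 (45.7% and 5.71%). Among all tested genes the shares were 24.1% and 20.3%, and in the highest level group 46.6% and 5.87%. The median log2 fold change was −0.12, against −0.13 in that level group. The list median became 0.03 with library totals, where 10 were lower and 5 higher. Relative to the median of all genes the list was at −0.14, a value that a change of scaling cannot test. gna-2, which makes the sugar precursor of eggshell chitin, had 277, 285 and 274 CPM in ZK and 205, 181 and 170 CPM in RM (log2 fold change −0.59 ± 0.06; edgeR adjusted p 0.00013). rme-2, the yolk receptor of oocytes, had 1375, 1536 and 1578 CPM in ZK and 1151, 1168 and 1221 CPM in RM (log2 fold change −0.34 ± 0.07). lin-41, a regulator of oocyte growth, was lower by −0.43 ± 0.06. cpg-9, a chondroitin proteoglycan, was higher, with 6.73, 7.24 and 6.25 CPM in ZK and 13.4, 16.7 and 10.6 CPM in RM (log2 fold change 1.01 ± 0.15). Yolk proteins as a group took 3.94 ± 0.142% (SD, n = 3) of all counts, without TMM scaling, in ZK and 3.90 ± 0.415% in RM (exact permutation p 0.9). Scaled by TMM, they summed to 41572 ± 1999 CPM (SD) in ZK and 37076 ± 4108 CPM in RM. Of the 6 genes, 1 was called higher and 1 lower, and the higher count was 0 to 2 when a library was left out. vit-6 was the lower member, with 19886, 20002 and 21120 CPM in ZK and 14656, 17537 and 14632 CPM in RM (log2 fold change −0.38 ± 0.09).

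Genes of protein synthesis were lower in RM. Of 80 tested genes of the cytosolic ribosome, 75 were lower and 1, rpl-25.1, was higher, with a median log2 fold change of −0.42. They took 6.31 ± 0.286% (SD, n = 3) of all counts in ZK and 5.14 ± 0.121% in RM (exact permutation p 0.1). rps-9, of the small subunit, had 1272, 1330 and 1169 CPM in ZK and 756, 794.7 and 700 CPM in RM. The log2 fold change was −0.74 ± 0.07 (edgeR adjusted p 7.78e-05). rpl-18, of the large subunit, had 563, 640 and 591 CPM in ZK and 372, 378 and 404 CPM in RM (log2 fold change −0.64 ± 0.06). The lower count was 74 to 77 when a library was left out and 71 with library totals. The call of rpl-25.1 (log2 fold change 0.17 ± 0.06) was lost when any library but RM replicate 1 was left out and in DESeq2. It was also lost with relative log expression factors, with no filter on low counts and in the fits of all 30 or of 27 libraries.

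Genes that make ribosomes were lower too, in 17 of 23 cases, with none higher (median log2 fold change −0.34). fib-1, the fibrillarin that modifies ribosomal RNA in the nucleolus, had 446, 496 and 452 CPM in ZK and 270, 295 and 291 CPM in RM (log2 fold change −0.70 ± 0.06; edgeR adjusted p 5.4e-05). rpoa-2, a subunit of RNA polymerase I, was lower by −0.51 ± 0.06. Of 69 mitochondrial ribosomal proteins, 35 were lower and 1 higher. That was 50.7% lower, against 24.1% of all tested genes. In the level group from 25.0 to 94.0 CPM, 41.6% were lower, and in the highest level group 46.6%. The lower count was 22 and 19 without ZK replicates 1 and 2, the higher count was 0 to 2 when a library was left out, and with library totals 15 were lower and 11 higher. mrpl-20 had 41.8, 42.9 and 40.5 CPM in ZK and 28.6, 25.8 and 25.07 CPM in RM (log2 fold change −0.65 ± 0.07).

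Proteasome subunits were lower in 30 of 33 genes, with a median log2 fold change of −0.25 and 20 to 27 lower when a library was left out. pas-7, a subunit of the proteolytic core, had 338, 338 and 329 CPM in ZK and 248, 254 and 238 CPM in RM (log2 fold change −0.44 ± 0.05; edgeR adjusted p 9.86e-05). rpn-6.2, a proteasome lid subunit, was the member called higher, at 0.22 ± 0.07. Its call was lost without RM replicate 1 or 2, without ZK replicate 1 or 2, in DESeq2 and with no filter on low counts. Among spliceosome and SR protein genes 32 of 50 were lower and none was higher (median log2 fold change −0.19), with 20 lower without ZK replicate 2. uaf-2, the small subunit of the splicing factor U2AF, had 134, 135 and 130 CPM in ZK and 98.5, 98.2 and 93.8 CPM in RM (log2 fold change −0.46 ± 0.05). With library totals, 13 proteasome genes were lower and 1 higher, and 16 spliceosome genes were lower and 5 higher. Relative to the median of all genes the proteasome list was at −0.27 and the spliceosome list at −0.21. A change of scaling cannot test these values.

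In the small RNA pathway 33 of 57 genes were lower and 6 higher (median log2 fold change −0.18). The lower count was 20 without ZK replicate 2, and with library totals 16 were lower and 12 higher. wago-4, a germline Argonaute that carries RNAi to the next generation, had 198, 230 and 210 CPM in ZK and 105, 112.2 and 106 CPM in RM. The log2 fold change was −0.98 ± 0.06 (edgeR adjusted p 1.45e-05), or 1.97-fold lower. alg-2, a microRNA Argonaute, had 99.4, 102 and 99.8 CPM in ZK and 51.7, 61.4 and 53.7 CPM in RM (log2 fold change −0.85 ± 0.07). ppw-1, an Argonaute needed for germline RNAi, was lower by −0.56 ± 0.05, and mut-14, a helicase of the RNAi pathway, by −0.61 ± 0.06. Within each group the 3 values of these genes were close, and the groups lay apart. Besides alg-3 and alg-4, the higher genes included wago-10, with 0.255, 0.332 and 0.407 CPM in ZK and 0.567, 1.54 and 1.08 CPM in RM (log2 fold change 1.65 ± 0.38).

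**Figure D4:**
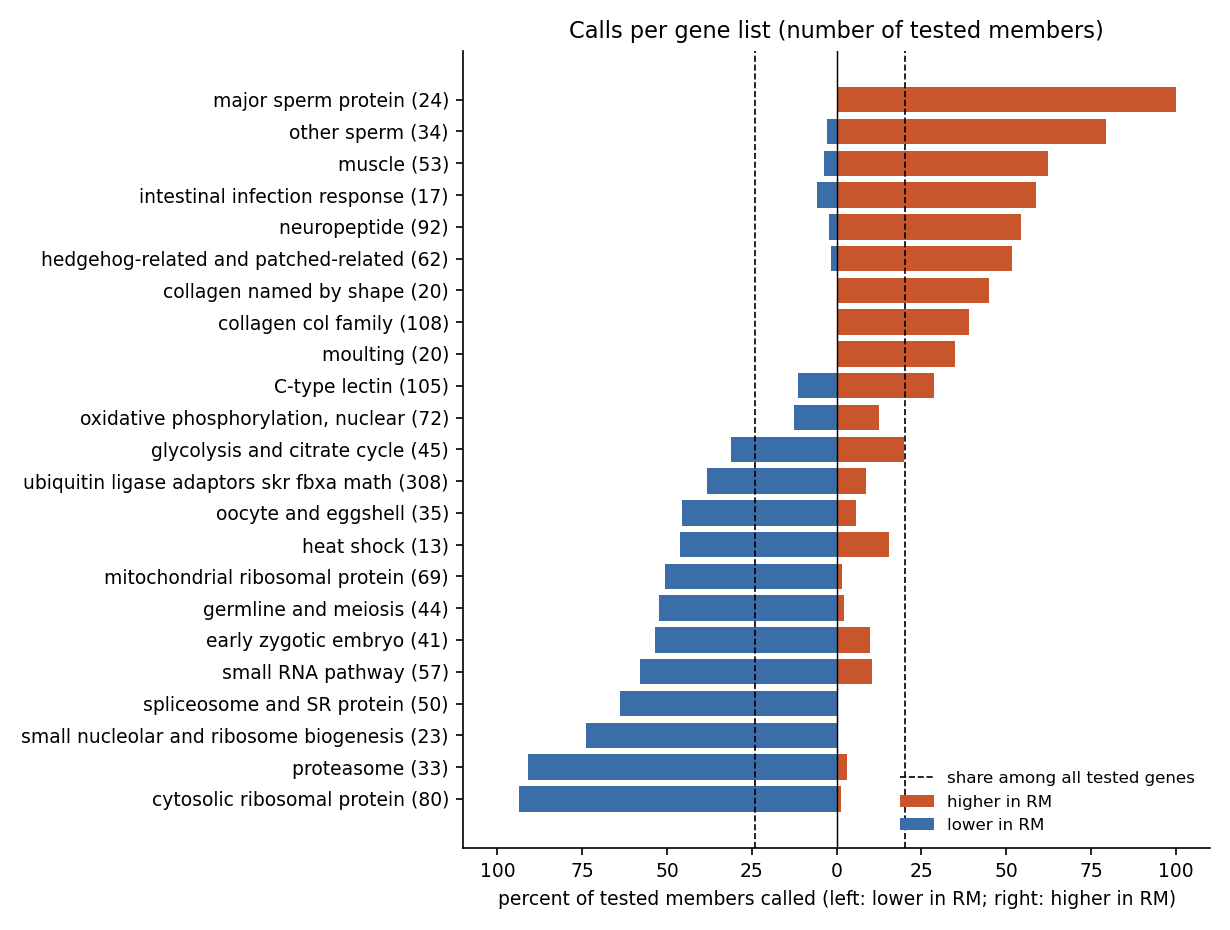
Bars give the percent of tested members called higher in RM (red, right) and lower in RM (blue, left) for 23 gene lists, with the number of tested members in parentheses; dashed lines mark the 20.3% and 24.1% of all tested genes called higher and lower. Major sperm protein genes were all called higher, while cytosolic ribosomal proteins, with 75 of 80 called lower, stand at the other end.

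Metabolic lists were close to the background or mixed. In oxidative phosphorylation 9 of 72 nuclear genes were higher and 9 lower, with a median log2 fold change of −0.01, and with library totals 36 were higher and 1 lower. The lower count was 3 without ZK replicate 2 and 5 without RM replicate 1 or ZK replicate 3. The higher count was 5 without ZK replicate 1 or 2, and with at least 1 CPM required 19 were higher and 5 lower. In glycolysis and the citrate cycle 9 of 45 were higher (20%) and 14 lower (31.1%), or 18 higher and 5 lower with library totals. The aldolases went opposite ways: aldo-1 had 26.2, 25.13 and 27.1 CPM in ZK and 44.4, 55.9 and 57.1 CPM in RM (log2 fold change 1.00 ± 0.09; edgeR adjusted p 9.26e-05). aldo-2 had 859, 873 and 880 CPM in ZK and 682, 680 and 659 CPM in RM (log2 fold change −0.37 ± 0.05). ldh-1, the lactate dehydrogenase, was higher by 0.67 ± 0.06, and pck-2, a phosphoenolpyruvate carboxykinase, was lower by −0.50 ± 0.08.

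acdh-1, an acyl-CoA dehydrogenase that is high when vitamin B12 is low, had 251, 255 and 288 CPM in ZK and 474, 457 and 206 CPM in RM. RM replicate 3 lay below all ZK libraries, and the gene did not pass (adjusted p 0.31). Without that library its adjusted p was 8.8e-07, and with any other left out it was 0.375 to 0.586. pcca-1 and pccb-1, the subunits of propionyl-CoA carboxylase, were lower by −0.37 ± 0.05 and −0.47 ± 0.06. The groups of both subunits did not overlap.

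In the heat shock list 6 of 13 were lower and 2 higher (median log2 fold change −0.30), or 1 higher without RM replicate 2 or 3 or ZK replicate 1 or 3. The shares were 46.2% lower and 15.4% higher, against 24.1% and 20.3% of all tested genes. hsp-1, the constitutive HSP70, had 3081, 3427 and 3377 CPM in ZK and 2114, 2357 and 2150 CPM in RM (log2 fold change −0.58 ± 0.07; edgeR adjusted p 0.000216). hsp-16.41, a small heat shock protein, was lower by −1.05 ± 0.23. hsp-3, a BiP chaperone of the endoplasmic reticulum, was lower by −0.53 ± 0.08. The mitochondrial HSP70 hsp-6 went the other way, with 721, 817 and 972 CPM in ZK and 1144, 1221 and 1221 CPM in RM (log2 fold change 0.52 ± 0.10). Lysosomal and gut proteases were split, with 7 of 22 higher and 5 lower, or 3 lower when any ZK replicate was left out and 11 higher with library totals. asp-3, an aspartyl protease, had 403, 357 and 407 CPM in ZK and 583, 608 and 613 CPM in RM (log2 fold change 0.63 ± 0.06). cpr-1, a gut cathepsin B, had 429, 423 and 385 CPM in ZK and 223, 175.9 and 181 CPM in RM (log2 fold change −1.09 ± 0.09).

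Several lower genes with small p-values belonged to no gene list described above. C53H9.2, on chromosome I, had 203, 218 and 189 CPM in ZK and 92.2, 96.4 and 85.3 CPM in RM (log2 fold change −1.15 ± 0.06; edgeR adjusted p 8.86e-06). tbh-1, the tyramine beta-hydroxylase that makes octopamine, had 431, 432 and 399 CPM in ZK and 215, 204 and 186.99 CPM in RM (log2 fold change −1.06 ± 0.06; edgeR adjusted p 8.97e-06). For both genes all RM libraries lay below all ZK libraries. T05G5.1 had 40.4, 34.9 and 29.6 CPM in ZK and 11.6, 11.6 and 11.37 CPM in RM (log2 fold change −1.60 ± 0.11). Y37H2A.13 had the most negative log2 fold change among genes above 1 CPM with groups apart, at −2.50 ± 0.17, from 10.4, 9.23 and 6.87 CPM in ZK to 1.48, 1.63 and 1.57 CPM in RM.

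Differing genes lay on every chromosome. On X 23.7% of tested genes were higher and 18.8% lower, with a median log2 fold change of 0.12, and on III 15.9% were higher and 29.1% lower, with a median of −0.04. There were 380 runs of at least 3 neighbouring tested genes called in the same direction with groups that did not overlap, the longest of 10 genes. With 20.3% of all tested genes higher and 24.1% lower, many such runs arise in any order of the genes. The number was not compared with that in a random order. By size of the median difference, the leading runs were C07G1.7 with its neighbours, then E03H12.5, E03H12.7 and ssq-2 on chromosome IV at 4977226 to 4997559, and then the lpr genes on X. E03H12.7 had 0.102, 0.151 and 0.0718 CPM in ZK and 1.06, 1.12 and 1.299 CPM in RM (log2 fold change 3.42 ± 0.31). ssq-2, of a sperm-specific family, had 0.510, 0.724 and 0.192 CPM in ZK and 1.87, 2.84 and 2.68 CPM in RM. Gene length had little relation to the difference, with a Spearman rho of −0.048 across genes, which are not independent replicates.

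The same prefixes were compared in 21 libraries of RNAi-fed worms that share no library with the comparison of L4440. They held 12 RM libraries (RNAi of F25H2.5, F55H2.6, R04E5.10 or F26D12.1) and 9 ZK libraries (RNAi of R186.7, ZK795.1 or M04C9.5), with all worms otherwise N2 hermaphrodites at 5 days. The prefix and the RNAi targets cannot be told apart in these libraries. Of 15891 genes tested there, 10385 differed (65.4%), with 5367 higher and 5018 lower in RM. With library totals the split was 8851 higher and 2613 lower.

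Most genes called in the L4440 libraries had the same call in the RNAi-fed ones. Of 2956 genes higher in L4440_RM and tested in both, 2559 were also higher (86.6%), 4 were lower and 393 did not pass. Of 3502 lower genes, 3193 were also lower (91.2%), 9 were higher and 300 did not pass. Read the other way, 54% of the 4739 genes higher in RNAi-fed RM were higher in L4440_RM, and 64.5% of the 4949 lower genes were lower. Across 14549 genes the log2 fold changes had a Pearson correlation of 0.918 and a Spearman correlation of 0.881, given as a description, since genes share libraries.

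**Figure D5:**
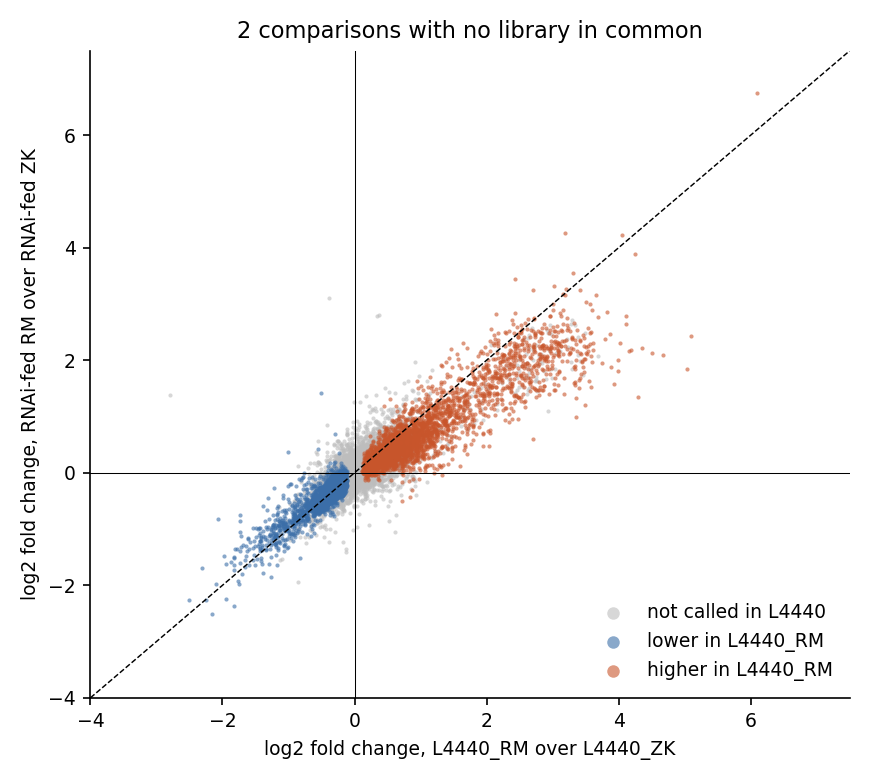
Each point is a gene tested in both comparisons, with the log2 fold change of L4440_RM over L4440_ZK on the horizontal axis and that of RNAi-fed RM over RNAi-fed ZK on the vertical axis; colours give the L4440 call and the dashed line marks equal values. Called genes lie along the line, and genes with a large positive L4440 difference lie mostly below it.

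The single genes with the clearest L4440 differences had the same direction there, though C07G1.7 varied widely among the RM libraries. scrm-4 had 4.33 to 6.58 CPM (median 5.19) in the RNAi-fed ZK libraries and 36.7 to 42.5 CPM (median 40.1) in the RM libraries, a log2 fold change of 2.89 ± 0.05 (edgeR adjusted p 2.9e-22). C07G1.7 had at most 0.181 CPM in ZK, and 3.06 to 74.8 CPM (median 10.9) in RM. C53H9.2 had 195 to 250 CPM in ZK and 72.4 to 101 CPM in RM (log2 fold change −1.37 ± 0.04). lys-4 had 36.98 to 69.8 CPM in ZK and 11.43 to 23.2 CPM in RM (log2 fold change −1.67 ± 0.07). None of these genes overlapped between the prefixes in either set of libraries.

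Sperm and cuticle genes had smaller differences in the RNAi-fed libraries, though the difference between the comparisons was not tested. The median log2 fold change of major sperm protein genes was 1.86 there (23 of 24 higher) and 2.68 in L4440. Collagens named by shape had a median of 1.84 (20 of 20 higher) against 3.00. For rol-6 the RNAi-fed values were 0.157 to 0.785 CPM in ZK and 0.999 to 6.40 CPM (median 1.71) in RM. In the col family 80 of 108 were higher and 4 lower, with a median of 1.22 against 1.75. The abundant col-184 overlapped widely, with 89.5 to 202 CPM in ZK and 94.5 to 218 CPM in RM (adjusted p 0.0616). Cytosolic ribosomal proteins were lower in 77 of 80 genes with a median of −0.54, against −0.42 in L4440. Early zygotic genes were lower in 31 of 41 with a median of −0.86, against −0.82.

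For 13 genes the 2 comparisons had calls in opposite directions, and for all 13 the RNAi-fed libraries of the prefixes overlapped. pnn-1 is R186.7, the target of RNAi in 3 of the ZK libraries. It had 123, 115 and 116 CPM in L4440_ZK and 93.6, 95.4 and 99.7 CPM in L4440_RM (log2 fold change −0.29 ± 0.05), and 18.1 to 127 CPM in RNAi-fed ZK against 84.3 to 138 CPM in RNAi-fed RM. The lysozyme gene lys-7 had 2142, 2032 and 2098 CPM in L4440_ZK and 1827, 1797 and 1690 CPM in L4440_RM (log2 fold change −0.24 ± 0.06). It was not called with library totals or in the fits of all 30 or of 27 libraries. In RNAi-fed worms lys-7 was higher in RM by 0.36 ± 0.07, with 1274 to 2618 CPM in ZK and 1253 to 3440 CPM in RM. idpc-2 was lower in L4440_RM by −0.50 ± 0.16 and higher in RNAi-fed RM by 1.42 ± 0.13. tufm-1, a mitochondrial translation factor, was higher by 0.20 ± 0.06 and lower by −0.12 ± 0.04. The L4440 call of idpc-2 was lost with library totals, in DESeq2 and in the fit of all 30 libraries. It was also lost when RM replicate 1 or any ZK replicate was left out. The L4440 call of tufm-1 was lost when RM replicate 1 or 2 was left out.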

How the data were processed

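The authors' deposited table of read counts per gene (46748 genes, 30 libraries) was used as deposited. Per the submitters' processing notes, reads were converted with bcl2fastq 1.8.4, aligned to WBcel235 with STAR 2.4.1d and counted with featureCounts 1.4.6-p4. Per the labels, the kit was TruSeq RNA v2, a kit for polyadenylated RNA that keeps no strand information. The deposited RPKM values were not used. Genes were filtered by expression in either group, scaled by TMM and tested with edgeR 4.0.16 (quasi-likelihood, Benjamini-Hochberg adjustment over all tested genes, threshold 0.05). Levels are CPM scaled by TMM, and errors of log2 fold changes are SE. The code of the fit was run on simulated counts with few changed genes, as many up as down. That check cannot test the scaling or the unequal spread of the groups. With 32275946 to 44739217 counts per library, genes far below 1 CPM rest on few reads. Single values per library were compared with exact two-sided permutation tests.

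The groups follow the library titles. The RNAi-fed comparison set the mean of 4 RM groups against the mean of 3 ZK groups. RNAi of C01A2.5 was left out as a group that differs from the rest of its prefix, and is in an alternative. Gene lists are described by counts and medians beside all tested genes. The libraries and lists were chosen with earlier results of these data known. Genes were named by rule: above a mean of 1 CPM and with groups apart, the 12 largest differences and 6 smallest p-values in each direction; the 5 smallest p-values of each list and its anchor genes; genes absent from a group with at least 30 counts in the other; and the 3 leading runs of neighbours. List members that went against their list, kpc-1, pnn-1, idpc-2 and tufm-1 were chosen after their values were seen. Alternatives were other scaling (library totals, relative log expression), other filters, DESeq2 1.42.0, a test against a 1.5-fold change, lane as a block, fits of all libraries, a correction for gene length and leaving out each library.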

Additional observations from a re-analysis of the deposited data

How the results depend on the processing

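Against a fold of 1.5 instead of no change, 786 genes were called in the L4440 comparison, 686 higher and 100 lower. With library totals 5111 were higher and 1671 lower, and in the RNAi-fed comparison 8851 were higher and 2613 lower. When a library was left out, the L4440 comparison called 4507 to 7100 genes (2329 to 3396 higher, 2178 to 3704 lower), and the RNAi-fed comparison 8385 to 9635. Relative log expression factors (6486), no filter (7437), at least 1 CPM (5372), DESeq2 (5928), all 30 libraries (7385) and 27 libraries (7242) stayed within 1.5 times the 6461 calls. So did the gene length correction (6566), which was chosen after seeing the data; a planned correction for GC content was not run. None of the 158 tested genes considered for naming was called in the opposite direction. With library totals the majority of calls turned from lower to higher. So did some list medians near 0 (oocyte and eggshell, −0.12 to 0.03, and glycolysis and citrate cycle, −0.07 to 0.08). Higher calls also outnumbered lower ones, by less, with all 30 libraries (4023 against 3362) and with 27 libraries (3646 against 3596). The same held with at least 1 CPM (2739 against 2633), without ZK replicate 1 (2377 against 2364) and without ZK replicate 2 (2329 against 2178). Apart from the fold of 1.5, lower calls stayed the majority under the other settings of the L4440 comparison. Of these 158 genes, 153 were called, 132 of them under every setting other than the fold of 1.5. The lane numbers gave no uniform pairing of the libraries: the correlations of deviations were −0.11, 0.32 and 0.27 in lanes 1, 2 and 5. The fit with lane as a replicate block called 6883 genes, and the block in the RNAi-fed comparison 10393. The lane block also called more collagens and moulting genes than the fit without it, as given above. The cause of these differences was not tested. Genes under 1 CPM limit precision.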
